A study of Mus musculus with 11 samples.

Results

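The 35 genes described here code for proteins that copy DNA in S phase: the MCM helicase, the factors that load and start it, the DNA polymerases and their clamp, the enzymes that make deoxynucleotides, 2 factors that copy chromatin behind the fork, and a few regulators of the entry into S phase. They were chosen by gene name, with earlier results of these data known. All 35 of them were found among the 23224 rows of the deposited table and had enough reads to be tested. Their transcripts were sequenced after poly(A) selection from 11 samples of mouse colon cancer organoids. All 11 share the AKP genotype, in which Apc, Trp53 and a further cancer gene are altered. The naive group (3 libraries) had not been in a mouse. The C57Bl6 and RAG2KO groups (3 libraries each) are cultures of primary tumours that the naive organoids had formed in the colon of immunocompetent C57Bl6 mice or of immunodeficient RAG2KO mice, which lack mature T and B cells but keep innate immune cells. Per the design text the cells were transplanted by colonoscopy, and the tumour cultures were passaged until no other cells than cancer cells were left. The last 2 libraries are naive organoids with a lentiviral construct that overexpresses SOX17 (SOX17OE), either constitutively or under doxycycline control. Each of these lines is 1 library, and the labels do not say if the inducible one received doxycycline. Each tumour library carries a number of its own in its label, but what the number stands for is not given. Nothing in the labels says that replicates came from separate mice or cultures, so the p-values measure only the spread between these samples, which may be technical.

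Before S phase, the MCM subunits are loaded onto origins by CDC6 and CDT1 and then joined by CDC45 and the GINS complex to form the active helicase. Polymerase alpha and primase start each strand, RFC loads the PCNA clamp, and polymerases delta and epsilon extend the strands, while FEN1 and LIG1 finish the pieces of the lagging strand. Many of these genes are transcribed by E2F factors, which are held back by the RB protein until cyclin D with CDK4 or CDK6, and then cyclin E with CDK2, phosphorylate RB. Their transcripts are therefore commonly read as a sign of cycling cells in the intestinal epithelium and its tumours. In bulk RNA, however, fewer cycling cells and less RNA per cell cannot be told apart.

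The libraries held 14109182 to 22154456 expected counts, and values below are CPM, counts scaled to a common library size with TMM factors, which compare a gene across libraries but not genes with each other, since gene length is not taken into account. Counts for a member in 1 library ran from 102 for Cdk6 to 14934 for Pcna. The 95% exact Poisson interval of a single value had a median half-width of 6.32% and at most 19.9%, and it covers counting error only. The 7 epithelial markers summed to between 6480 and 11300 CPM in every library, and none of them was at 0 in any group. The 8 fibroblast, 5 endothelial and 10 immune markers summed to at most 10.2, 9.97 and 14.9 CPM in any library. Fibroblast sums were 0.286 to 0.524 CPM for naive, 0.996 to 2.24 for C57Bl6 and 0.811 to 10.2 for RAG2KO libraries, with 6.80 for the constitutive and 0.699 for the inducible line. In the constitutive line Col3a1 was at 5.24 and Pdgfra at 1.33 CPM, against naive means of 0.0677 and 0.0318, while Col1a1, Col1a2, Dcn, Lum and Pdgfrb were at 0. In the inducible line Col1a2, Dcn, Lum, Pdgfrb and Acta2 were at 0. The part of such cells in the results was not tested. Sox17, the gene placed in the SOX17OE lines, was at 0.0438 to 0.214 CPM in the naive libraries and at 72.7 CPM in the constitutive and 4.78 in the inducible line. C57Bl6 libraries had 18.4, 12.4 and 74.3 CPM of it, and RAG2KO libraries 22.2, 15.4 and 24.4. Rn45s, a ribosomal RNA precursor, made up 2.42 to 4.99% of counts for naive, 2.21 to 3.77% for C57Bl6 and 6.56 to 8.54% for RAG2KO libraries. Its share of the constitutive line was 6.39%, with a 95% Wilson interval of 6.38 to 6.41%, and that of the inducible line 3.71%, with one of 3.70 to 3.72%.

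The promoters of 6 members are shown because E2F factors bind the letters TTTCGCGC or TTTGGCGC, which stand in some of them and not in others. They are the 250 bases before the start of transcription in the RefSeq promoter table for GRCm38.p6, written 5' to 3' in the direction of the gene. Capitals mark a match on either strand, so that GCGCCAAA is TTTGGCGC read on the other strand. They were chosen after the matches and the expression values were seen. Mcm5, Mcm6, Pola1 and Uhrf1 have matches and were called lower in RAG2KO than in naive organoids or, for Mcm6, lower in RAG2KO than in C57Bl6 organoids. Rfc3 has a match and was called in neither of these, and Cdk6 has no match and was called in both. The windows are Mcm5 at chr8:75109259-75109508 on the plus strand, Mcm6 at chr1:128359706-128359955 on the minus strand, Pola1 at chrX:93632156-93632405 on the minus strand, Uhrf1 at chr17:56304063-56304312 on the plus strand, Rfc3 at chr5:151651209-151651458 on the minus strand and Cdk6 at chr5:3343643-3343892 on the plus strand.
Mcm5: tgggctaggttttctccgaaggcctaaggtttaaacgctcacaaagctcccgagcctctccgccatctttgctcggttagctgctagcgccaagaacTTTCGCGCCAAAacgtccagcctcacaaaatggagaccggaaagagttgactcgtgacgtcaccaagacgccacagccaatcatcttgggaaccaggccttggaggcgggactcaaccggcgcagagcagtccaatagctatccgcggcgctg
Mcm6: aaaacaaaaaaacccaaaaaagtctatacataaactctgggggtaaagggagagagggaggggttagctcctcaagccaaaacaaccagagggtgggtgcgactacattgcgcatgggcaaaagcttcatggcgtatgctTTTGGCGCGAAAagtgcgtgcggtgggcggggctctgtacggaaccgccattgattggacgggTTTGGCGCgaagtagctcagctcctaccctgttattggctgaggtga
Pola1: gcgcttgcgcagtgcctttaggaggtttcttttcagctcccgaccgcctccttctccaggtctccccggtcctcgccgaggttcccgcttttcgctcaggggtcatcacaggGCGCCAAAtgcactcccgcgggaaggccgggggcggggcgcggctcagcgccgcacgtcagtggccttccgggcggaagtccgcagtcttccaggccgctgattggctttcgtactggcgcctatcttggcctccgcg
Uhrf1: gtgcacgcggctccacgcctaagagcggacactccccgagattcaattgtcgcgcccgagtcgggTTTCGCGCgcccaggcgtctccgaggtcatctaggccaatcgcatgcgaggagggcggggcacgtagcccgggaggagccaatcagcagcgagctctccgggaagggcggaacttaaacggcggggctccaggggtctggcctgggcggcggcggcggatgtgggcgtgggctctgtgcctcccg
Rfc3: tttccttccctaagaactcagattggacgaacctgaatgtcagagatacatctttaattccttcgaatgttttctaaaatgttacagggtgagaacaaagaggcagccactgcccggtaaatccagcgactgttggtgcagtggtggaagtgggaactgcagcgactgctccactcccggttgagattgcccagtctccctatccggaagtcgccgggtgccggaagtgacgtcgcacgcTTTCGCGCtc
Cdk6: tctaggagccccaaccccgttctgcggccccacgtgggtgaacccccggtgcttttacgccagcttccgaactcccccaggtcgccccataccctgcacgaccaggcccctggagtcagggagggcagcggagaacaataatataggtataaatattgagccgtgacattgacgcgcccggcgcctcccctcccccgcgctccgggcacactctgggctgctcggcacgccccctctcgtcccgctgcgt

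In Mcm5, TTTCGCGC and the reverse complement of TTTGGCGC overlap in 1 stretch that begins 153 bases before the start site. The Mcm6 promoter has such an overlapping pair beginning 110 bases before the start and a further TTTGGCGC 47 bases before it. Over the full windows of 300 bases, which add the first 50 bases after the start, 30 of the 35 members have an entry, with 35 windows in all. At least 1 of the 2 E2F forms was found in 9 of these 35 windows (25.7%), against 267 of 32851 windows of all promoters (0.813%). The 9 windows are those of Mcm3, Mcm5, Mcm6, Mcm7, Cdt1, Pola1, Rfc3, Lig1 and Uhrf1. An E2F form also stood in 6 of 50 windows (12%) of other replication genes. For regulators of the passage from G1 to S it stood in 5 of 32 windows (15.6%). The letters CCAAT, the core of the site of NF-Y, were found on either strand in 54.3% of the members' windows against 37.4% of all. TTTGAA, the core of the cell cycle homology region known from mitotic genes, was found in 8.57% against 17.9% of all. In the promoters of 20 mitosis genes, of which 17 have an entry, the order was another: 5.88% had an E2F form, 88.2% CCAAT and 70.6% TTTGAA. A match of letters is a description of the window, and no binding was measured here.

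**Figure D1:**
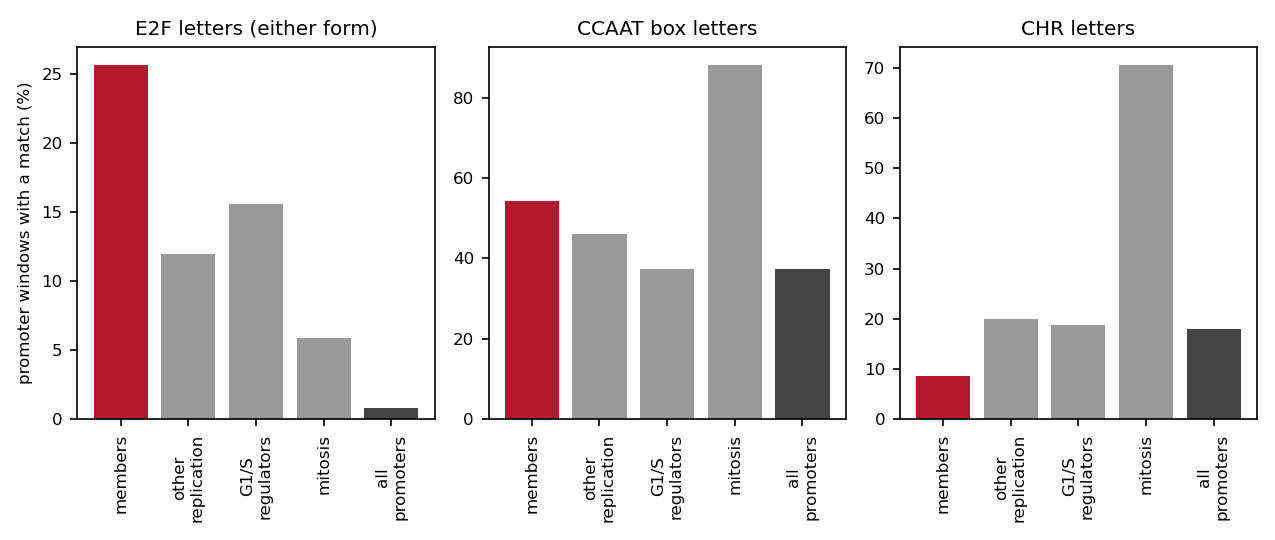
Share of promoter windows (percent, from 0) that hold the E2F letters in either form, CCAAT or TTTGAA on either strand, for the 35 members, 3 other gene lists and all promoters in the RefSeq table (GRCm38.p6). The E2F letters stand in 25.7% of the members' windows and 0.813% of all windows. They stand in 12% of the windows of other replication genes and 15.6% of those of G1/S regulators. TTTGAA is most frequent among the mitosis genes at 70.6%.

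Many members were lower in RAG2KO tumour-derived than in naive organoids. 16 of the 35 were called lower at an adjusted p under 0.05, and none higher. Of the 13720 tested genes 13.3% were called lower. The 16 had among them 6 fork and polymerase genes, 4 genes of MCM helicase subunits and Mcm10. Fitted log2 fold changes were below 0 for all 35 members, from -1.01 for Pold1 to -0.01 for Cdk2, and their median was -0.51 against 0.02 over all tested genes. Cdk2 or Rfc3 turned positive under other scalings, which left 33 to 35 members below 0. 14 of the 35 had all 3 RAG2KO libraries below all 3 naive libraries, against 22.4% of tested genes. 6 of the 16 calls, those of Pold1, Uhrf1, Cdt1, Pole, Cdk6 and Rrm2, held with each of the 11 libraries left out. Each of the other 10 was lost without naive replicate 2, without RAG2KO replicate 2 and without RAG2KO replicate 3, and each but Lig1 also without naive replicate 1. Mcm2, Mcm3 and Mcm5 further lost their call without C57Bl6 replicate 3, Mcm2 and Mcm5 without C57Bl6 replicate 2, and Mcm2 without C57Bl6 replicate 1.

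No member was called between C57Bl6 tumour-derived and naive organoids with edgeR, where 15.3% of tested genes were called in either direction. An unadjusted p under 0.05 was found for 2 members, Pcna and Cdk6, and for 4141 of the 13720 tested genes. DESeq2 called 1 member, Pcna as lower, and 20% of tested genes. Limma voom called 2 members, Pcna as lower and Cdk6 as higher, and 29.8% of tested genes. The members' median log2 fold change was 0.05 against 0.02 over all tested genes, with 21 fitted above and 14 below 0. It was -0.08 without naive replicate 3. 5 members, Mcm2, Mcm4, Rrm2, E2f1 and Cdk6, had all C57Bl6 libraries above all naive ones (19.9% of tested genes did), and 2, Pcna and Tk1, had them below (16.9%).

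When the 2 kinds of tumour-derived organoids were compared directly, 17 of the 35 members were called higher in C57Bl6 than in RAG2KO and none lower, where 12.2% of tested genes were called higher. The median log2 fold change was 0.63 against 0.00108 over all tested genes, and 32 of 35 members were fitted above 0. All 3 C57Bl6 libraries lay above all 3 RAG2KO libraries for 20 members, against 20.4% of tested genes. The 3 fitted below 0 were Pcna at -0.15, Rfc3 at -0.30 and Cdk2 at -0.02, and none of these was called. 9 of the 17 calls held with each library left out, those of Mcm2, Mcm4, Rrm2, Cdt1, Pold1, Pole, Uhrf1, Chaf1a and Cdk6. Each of the other 8 was lost without RAG2KO replicate 3 and without C57Bl6 replicate 3. All of these 8 but Mcm3 and Lig1 were also lost without RAG2KO replicate 2, and Mcm5, Mcm6, Gins2 and Rfc5 without C57Bl6 replicate 2, Pola1 without C57Bl6 replicate 1, Mcm5 without naive replicate 2 and Rfc5 without naive replicate 1.

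In the SOX17OE lines, the mean of both was called lower than naive for 8 of the 35 members (5.92% of tested genes were called lower) and higher for none. The constitutive line alone was called lower for 10 members (5.04% of tested genes), those 8 and Tk1 and Cdc45. 4 of these 10 calls, those of Cdt1, Pold1, Uhrf1 and Cdk6, held with each of the 10 other libraries left out. The calls of Rrm2, Tk1, Cdc45, Pole, Lig1 and Chaf1a were each lost without naive replicate 1 and without naive replicate 2, and all of these but Pole without C57Bl6 replicate 3. Rrm2 and Tk1 also lost theirs without naive replicate 3, and Tk1 and Chaf1a without C57Bl6 replicate 2 and without RAG2KO replicate 3. The inducible line alone had no member called with edgeR, which called 0.656% of tested genes there in either direction. DESeq2 and limma voom each called 2 members lower there, Pold1 and Uhrf1 in both, and 5.83% and 5.34% of tested genes, so the members' share of 2 in 35 lies near these backgrounds. Median log2 fold changes were -0.59 for the mean, -0.77 for the constitutive and -0.44 for the inducible line, against -0.00703, -0.00194 and 0 over all tested genes. Both lines lay below all 3 naive libraries for 21 members, against 23.0% of tested genes. The inducible line was higher than the constitutive line in 33 of 35 members, all but Cdc6 and Ccne2. That difference between 2 single libraries was not tested. With the constitutive line left out, the mean becomes the inducible line alone, which is 1 library and had no member called. This cannot show whether the 8 calls for the mean rest on the constitutive line. In the inducible line those 8 members had log2 fold changes from -0.84 for Rrm2 to -0.47 for Cdk6.

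**Figure D2:**
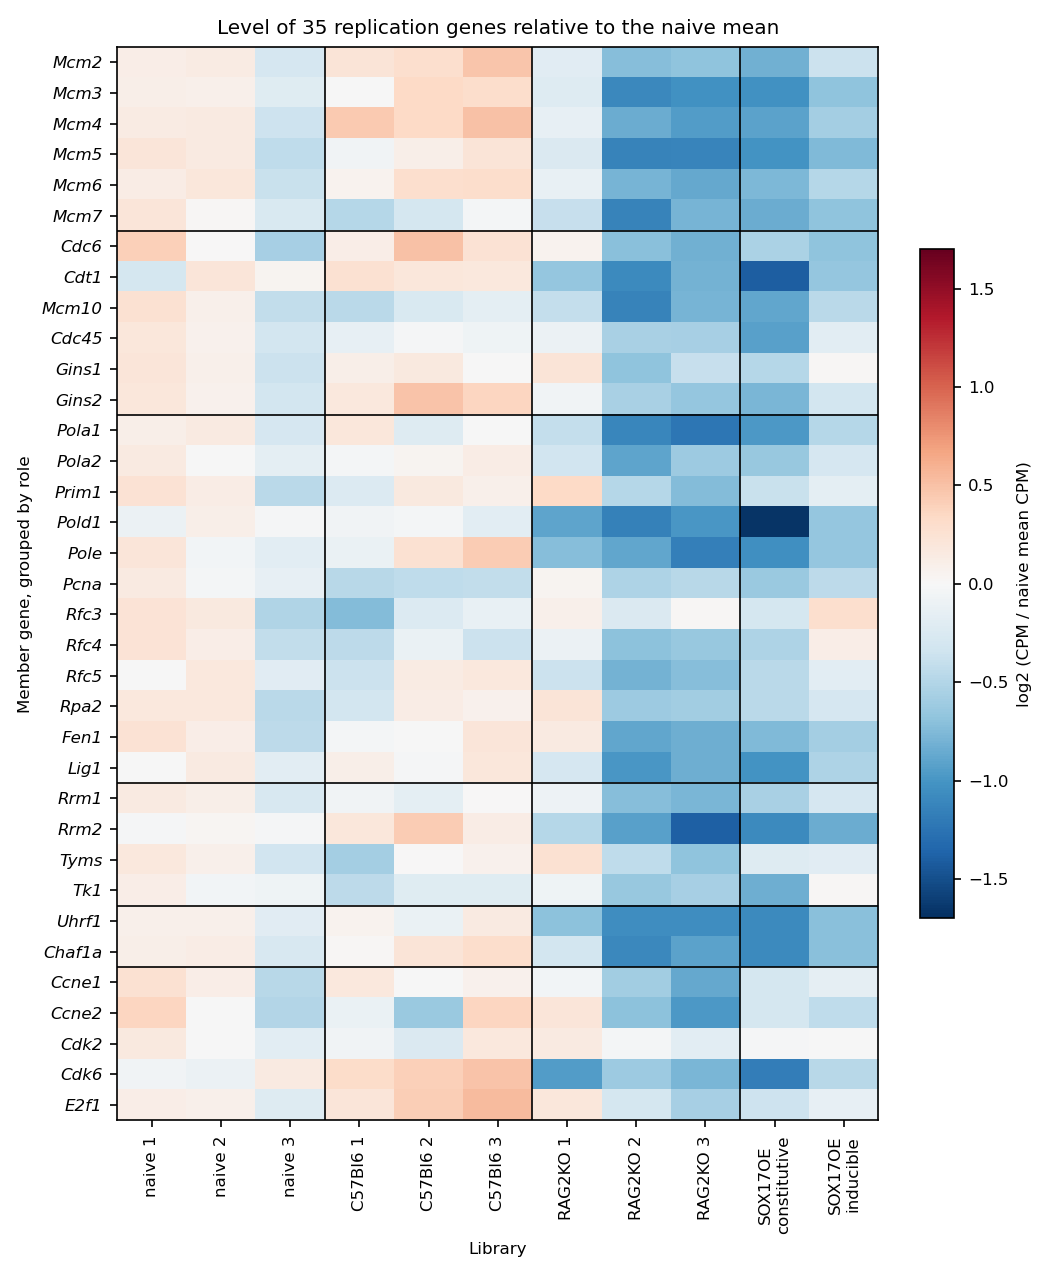
Level of each of the 35 members (rows, grouped by role) in each of the 11 libraries (columns), as log2 of its CPM over the naive mean, on a colour scale from blue (lower) to red (higher). RAG2KO replicates 2 and 3 and the constitutive line are blue in nearly every row, RAG2KO replicate 1 and the inducible line are paler, and the Cdk2 row is close to white throughout.

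The C57Bl6, RAG2KO and SOX17OE comparisons with naive organoids share the naive libraries, so their fold changes are given side by side and not set against each other. A count made after the values were seen asked how many members had all 5 RAG2KO and SOX17OE libraries below all 6 naive and C57Bl6 libraries. 11 of 35 did, where 6.79% of tested genes did: Mcm3, Rrm2, Cdt1, Pola1, Pola2, Pold1, Pole, Lig1, Uhrf1, Chaf1a and Cdk6.

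The share of Rn45s moved with these results, being highest in the RAG2KO libraries and the constitutive line. With its log2 share as a covariate, added after seeing the data, edgeR called no member between RAG2KO and naive or between C57Bl6 and RAG2KO. Over all genes 148 and 2 were called. An unadjusted p under 0.05 was found for 5 and 6 members, and all genes were not counted at that threshold. The members' median log2 fold changes in this fit were -0.53 and 0.68, against -0.51 and 0.63 without the covariate, and the median standard error of a member rose from 0.20 to 0.36 and 0.44. For the constitutive line the members' median was -0.76 with the covariate, against -0.77 without it. The median standard error of a member rose there from 0.30 to 0.39. With Rn45s left out of the table and the libraries scaled without it, 16, 17, 8 and 10 members were called in the RAG2KO, C57Bl6 against RAG2KO, SOX17OE mean and constitutive comparisons, as with it. Every RAG2KO library had a higher Rn45s share than every naive and C57Bl6 library, so the share and the group cannot be told apart.

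Among the subunits of the MCM helicase, 4 of 6 were called lower in RAG2KO than in naive organoids and 5 of 6 lower in RAG2KO than in C57Bl6, with medians of -0.66 and 0.85 for RAG2KO against naive and C57Bl6 against RAG2KO. Mcm5 levels were 236, 227 and 152 CPM for naive, 197, 221 and 238 for C57Bl6 and 174, 93.6 and 94.7 for RAG2KO libraries, with 102 for the constitutive and 123 for the inducible line. Mcm3 levels were 199, 195 and 160.4 CPM for naive, 184, 235 and 227 for C57Bl6 and 159, 86.6 and 90.4 for RAG2KO libraries, with 90.7 for the constitutive and 116 for the inducible line. In both genes RAG2KO replicates 2 and 3 were low together with the SOX17OE lines, and RAG2KO replicate 1 stood above them. For Mcm5 it overlapped the naive libraries, and for Mcm3 it stayed just below them. Mcm5 fell by 0.77 on the log2 scale in RAG2KO against naive (SE 0.25, adjusted p = 0.0448) and was 1.81-fold higher in C57Bl6 than in RAG2KO (SE 0.25 on the log2 scale, adjusted p = 0.0347). Mcm3 fell by 0.72 on the log2 scale in RAG2KO against naive (SE 0.22, adjusted p = 0.0357) and was 1.92-fold higher in C57Bl6 than in RAG2KO (SE 0.23 on the log2 scale, adjusted p = 0.0162).

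Mcm2 levels were 170, 174 and 130.1 CPM for naive, 183, 193 and 219 for C57Bl6 and 138, 95.6 and 98.1 for RAG2KO libraries, with 89.6 for the constitutive and 123 for the inducible line. Mcm4 levels were 129, 129 and 91.4 CPM for naive, 159, 147 and 165 for C57Bl6 and 105, 65.1 and 60.5 for RAG2KO libraries, with 62.2 for the constitutive and 78.2 for the inducible line. Mcm6 levels were 219, 229.5 and 154 CPM for naive, 209, 244 and 247 for C57Bl6 and 184, 117 and 109.5 for RAG2KO libraries, with 119 for the constitutive and 144 for the inducible line. These 3 subunits had each C57Bl6 library above each RAG2KO library, and Mcm2 and Mcm4 also had each C57Bl6 library above each naive one. Mcm2 fell by 0.51 on the log2 scale in RAG2KO against naive (SE 0.17, adjusted p = 0.0484) and was 1.80-fold higher in C57Bl6 than in RAG2KO (SE 0.17 on the log2 scale, adjusted p = 0.00936). Mcm4 was higher by 1.03 on the log2 scale in C57Bl6 than in RAG2KO (SE 0.22, adjusted p = 0.00980). Mcm6 was higher by 0.77 on the log2 scale in C57Bl6 than in RAG2KO (SE 0.22, adjusted p = 0.0295). Neither Mcm4 nor Mcm6 was called against naive, with adjusted p = 0.0601 and 0.0780. Mcm7 levels were 372, 328 and 271 CPM for naive, 232, 263 and 316 for C57Bl6 and 245, 147 and 186 for RAG2KO libraries, with 180.4 for the constitutive and 202 for the inducible line. It was the 1 subunit with a C57Bl6 mean below the naive mean, though the libraries overlapped. Mcm7 fell by 0.75 on the log2 scale in RAG2KO against naive (SE 0.20, adjusted p = 0.0217) and was not called between C57Bl6 and RAG2KO (0.49, adjusted p = 0.102). In the SOX17OE lines all 6 subunits lay below the naive libraries, with log2 fold changes of the mean from -0.88 to -0.59. None was called with edgeR. For the mean, all 6 had an unadjusted p under 0.05, as did 4242 of the 13720 tested genes.

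Of the factors that load and start the helicase, Cdt1 stood out by how little its groups overlapped. Cdt1 levels were 39.2, 56.1 and 50.01 CPM for naive, 57.8, 55.4 and 54.8 for C57Bl6 and 30.6, 23.0 and 27.8 for RAG2KO libraries, with 18.4 for the constitutive and 30.8 for the inducible line. The 3 C57Bl6 values lay close together at 56.0 ± 1.58 CPM (SD, n = 3), and each RAG2KO and SOX17OE library was below each of the other libraries. Cdt1 fell by 0.84 on the log2 scale in RAG2KO against naive (SE 0.16, adjusted p = 0.00478). It fell by 1.40 in the constitutive line (SE 0.25, adjusted p = 0.00737), was 2.07-fold higher in C57Bl6 than in RAG2KO organoids, and was 1.58-fold lower than naive in the inducible line without passing the test (adjusted p = 0.185). Mcm10 levels were 59.6, 52.9 and 37.3 CPM for naive, 36.3, 41.7 and 44.7 for C57Bl6 and 37.5, 22.7 and 28.8 for RAG2KO libraries, with 27.0 for the constitutive and 36.4 for the inducible line. MCM10 helps to activate the helicase, and its gene was highest in naive replicate 1. Mcm10 fell by 0.75 in RAG2KO against naive (SE 0.22, adjusted p = 0.0274) and was called in no other comparison.

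Gins2 levels were 44.1, 40.7 and 31.1 CPM for naive, 43.9, 53.9 and 49.8 for C57Bl6 and 37.1, 26.4 and 24.5 for RAG2KO libraries, with 22.6 for the constitutive and 31.0 for the inducible line. Cdc45 levels were 65.3, 60.7 and 46.2 CPM for naive, 52.3, 56.6 and 54.5 for C57Bl6 and 53.6, 39.2 and 38.7 for RAG2KO libraries, with 30.3 for the constitutive and 50.5 for the inducible line. Gins2, a subunit of the GINS complex, had each RAG2KO library below each C57Bl6 library, while Cdc45, the helicase's partner, was lowest in the constitutive line. Gins2 was higher by 0.75 on the log2 scale in C57Bl6 than in RAG2KO (SE 0.19, adjusted p = 0.0206). Cdc45 fell by 0.92 in the constitutive line against naive (SE 0.25, adjusted p = 0.0409). Cdc6 and Gins1 were called in no comparison. Cdc6, whose product loads the helicase with CDT1, ranged from 19.2 to 48.0 CPM over the 11 libraries and Gins1 from 18.0 to 33.8 CPM, with the highest Gins1 value in RAG2KO replicate 1.

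Among the polymerases, the catalytic subunits of delta and epsilon differed with little overlap. Pold1 levels were 52.0, 59.7 and 55.0 CPM for naive, 53.4, 54.1 and 49.0 for C57Bl6 and 29.9, 25.1 and 27.9 for RAG2KO libraries, with 17.5 for the constitutive and 35.2 for the inducible line. Pole levels were 46.3, 39.0 and 35.7 CPM for naive, 37.2, 48.1 and 54.2 for C57Bl6 and 24.4, 21.96 and 18.1 for RAG2KO libraries, with 19.7 for the constitutive and 25.7 for the inducible line. In each gene all RAG2KO and SOX17OE libraries were below all naive and C57Bl6 libraries. Pold1 fell by 1.01 on the log2 scale in RAG2KO against naive, a 2.01-fold difference (SE 0.12, adjusted p = 0.000606), the largest among the 35 members in size. In the constitutive line Pold1 fell by 1.67 (SE 0.19, adjusted p = 0.00114), and in the inducible line its value was -0.66 (adjusted p = 0.111). Pole fell by 0.91 in RAG2KO against naive (SE 0.18, adjusted p = 0.00581) and was 2.16-fold higher in C57Bl6 than in RAG2KO.

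Pola1 levels were 62.4, 64.9 and 47.6 CPM for naive, 66.8, 50.1 and 57.8 for C57Bl6 and 44.0, 26.9 and 24.8 for RAG2KO libraries, with 29.6 for the constitutive and 41.7 for the inducible line. Pola2 levels were 51.2, 46.1 and 41.3 CPM for naive, 45.2, 47.9 and 50.4 for C57Bl6 and 36.9, 24.8 and 30.0 for RAG2KO libraries, with 29.6 for the constitutive and 37.8 for the inducible line. These code for the catalytic and the regulatory B subunit of polymerase alpha, which makes the first stretch of each new strand with primase. Both had RAG2KO replicate 1 between the other RAG2KO libraries and the naive ones. Pola1 fell by 0.87 in RAG2KO against naive (SE 0.23, adjusted p = 0.0180) and Pola2 by 0.60 (SE 0.16, adjusted p = 0.0197). Prim1, which codes for the catalytic subunit of primase, was not called in any comparison. Its RAG2KO values were 51.6, 29.3 and 24.5 CPM, which span the naive values of 48.5, 44.6 and 29.7 CPM.

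Of the clamp and the 3 loader subunits, only Rfc5 was called with edgeR. Pcna levels were 748, 655 and 607 CPM for naive, 483, 495 and 503 for C57Bl6 and 691, 467 and 485 for RAG2KO libraries, with 434 for the constitutive and 494 for the inducible line. Pcna, the gene of the sliding clamp, was the member with the largest fitted difference between C57Bl6 and naive organoids in size: all 3 C57Bl6 libraries lay below all 3 naive libraries, with -0.44 on the log2 scale (SE 0.16), and the adjusted p was 0.0908, which misses the threshold. RAG2KO replicate 1 had 691 CPM, within the naive range. Rfc3 levels were 57.8, 55.0 and 34.5 CPM for naive, 29.5, 41.7 and 45 for C57Bl6 and 52.2, 41.3 and 49.96 for RAG2KO libraries, with 40.1 for the constitutive and 59.6 for the inducible line. Rfc5 levels were 49.5, 56.3 and 43.7 CPM for naive, 38.8, 54.9 and 56.3 for C57Bl6 and 38.6, 28.4 and 30.2 for RAG2KO libraries, with 36.3 for the constitutive and 44.1 for the inducible line. Both are small subunits of the clamp loader RFC. Rfc3 overlapped between RAG2KO and naive libraries, with -0.04 on the log2 scale (SE 0.22, adjusted p = 0.918), and its highest value was that of the inducible line. Rfc5 fell by 0.62 in RAG2KO against naive (SE 0.18, adjusted p = 0.0293) with no overlap. Rfc4, which codes for another subunit, ranged from 37.6 to 71.3 CPM and was called in no comparison.

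Lig1 levels were 149, 166 and 132 CPM for naive, 159, 147 and 171 for C57Bl6 and 122, 75.0 and 84.0 for RAG2KO libraries, with 73.7 for the constitutive and 104 for the inducible line. Lig1, the ligase that seals the lagging strand, had all RAG2KO and SOX17OE libraries below all others. Lig1 fell by 0.67 in RAG2KO against naive (SE 0.18, adjusted p = 0.0205), and by 1.02 in the constitutive line (SE 0.27, adjusted p = 0.0369). Fen1, the flap nuclease that acts before the ligase, and Rpa2, a subunit of the protein that coats single-stranded DNA, were called in no comparison. Their RAG2KO libraries were split: replicate 1 had 89.6 CPM of Fen1 and 67.9 of Rpa2, replicates 2 and 3 had 43.7 and 45.5 of Fen1 and 38.3 and 38.9 of Rpa2.

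Of the 4 genes of nucleotide supply, Rrm2 differed most. Rrm2 levels were 150.2, 156 and 149 CPM for naive, 174, 204 and 166 for C57Bl6 and 108, 80.0 and 57.8 for RAG2KO libraries, with 71.5 for the constitutive and 84.9 for the inducible line. It codes for the small subunit of ribonucleotide reductase, which is made in S phase. The naive values averaged 151.7 ± 3.46 CPM (SD, n = 3), the C57Bl6 libraries were all above them, and the RAG2KO and SOX17OE libraries were all below. Rrm2 fell by 0.89 in RAG2KO against naive (SE 0.20, adjusted p = 0.00943), was 2.21-fold higher in C57Bl6 than in RAG2KO (SE 0.20 on the log2 scale, adjusted p = 0.00487), and fell by 1.09 in the constitutive line (adjusted p = 0.0404). It had the largest fitted difference of the members in the inducible line, at -0.84 (SE 0.29, adjusted p = 0.179), which was not called. Rrm1, which codes for the large subunit of the same enzyme, was not called in any comparison, with -0.49 in RAG2KO against naive (SE 0.19, adjusted p = 0.0804).

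Tk1 levels were 174, 154 and 152 CPM for naive, 118, 138 and 139 for C57Bl6 and 152, 102 and 109 for RAG2KO libraries, with 90.1 for the constitutive and 162 for the inducible line. Tk1, the cytosolic thymidine kinase, was lowest in the constitutive line and at a naive level in the inducible line. In the constitutive line Tk1 fell by 0.83 (SE 0.24, adjusted p = 0.0476), and in RAG2KO it did not pass the test (adjusted p = 0.0808). Tyms, thymidylate synthase, was called in no comparison and ranged from 65.1 to 125 CPM, with both extremes in RAG2KO libraries. The table also lists Tyms-ps, a near copy of this gene, so that reads may be split between them.

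Both genes of chromatin copying were called lower in RAG2KO and in the constitutive line and higher in C57Bl6 than in RAG2KO. Uhrf1 levels were 138, 139 and 115 CPM for naive, 136, 120 and 145 for C57Bl6 and 80.1, 62.8 and 62.9 for RAG2KO libraries, with 61.4 for the constitutive and 79.9 for the inducible line. Chaf1a levels were 91.1, 92.6 and 70.5 CPM for naive, 85.8, 99.0 and 105 for C57Bl6 and 68.5, 39.7 and 45.03 for RAG2KO libraries, with 40.1 for the constitutive and 51.9 for the inducible line. UHRF1 brings the maintenance methyltransferase DNMT1 to newly copied DNA, and CHAF1A is the large subunit of the chaperone that places histones there. In each, all 5 RAG2KO and SOX17OE libraries were below the other 6. Uhrf1 fell by 0.93 in RAG2KO against naive (SE 0.14, adjusted p = 0.00184) and by 1.08 in the constitutive line (SE 0.21, adjusted p = 0.0119). Chaf1a fell by 0.73 in RAG2KO against naive (SE 0.20, adjusted p = 0.0243), and the inducible line had -0.71 without passing the test (adjusted p = 0.247).

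Of the 5 regulators, only Cdk6 was called, in 4 of the 6 comparisons. Cdk6 levels were 12.7, 12.5 and 14.8 CPM for naive, 16.6, 17.7 and 18.7 for C57Bl6 and 6.87, 8.64 and 7.80 for RAG2KO libraries, with 5.88 for the constitutive and 9.62 for the inducible line. The C57Bl6 libraries were the highest and the RAG2KO and SOX17OE libraries the lowest, with no overlap between the 3 kinds. Cdk6 fell by 0.78 in RAG2KO against naive (SE 0.16, adjusted p = 0.00749) and by 1.18 in the constitutive line (SE 0.25, adjusted p = 0.0152). It was 2.27-fold higher in C57Bl6 than in RAG2KO (adjusted p = 0.00273), and against naive C57Bl6 had 0.41 (SE 0.16, adjusted p = 0.118). RAG2KO replicate 1 was the lowest of its group for this gene.

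Cdk2 levels were 59.3, 52.5 and 46.8 CPM for naive, 50.5, 44.7 and 59.7 for C57Bl6 and 58.8, 51.7 and 46.9 for RAG2KO libraries, with 52.1 for the constitutive and 52.4 for the inducible line. Cdk2, the kinase that cyclin E activates, had overlapping libraries in all groups and the smallest spread of the members, with a highest value 1.33-fold above the lowest. Its log2 fold changes lay between -0.03 and -0.01 in all 6 comparisons, with standard errors of 0.15 to 0.21. The cyclin E genes Ccne1 and Ccne2 and E2f1, the gene of an activating E2F factor, were called in no comparison. E2f1 had 21.0, 24.2 and 26.2 CPM in the C57Bl6 libraries, all above the naive values of 19.5, 19.2 and 15.6, and its comparison with RAG2KO (20.6, 14.8 and 12.2 CPM) had a log2 fold change of 0.59 (SE 0.20, adjusted p = 0.0600).

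**Figure D3:**
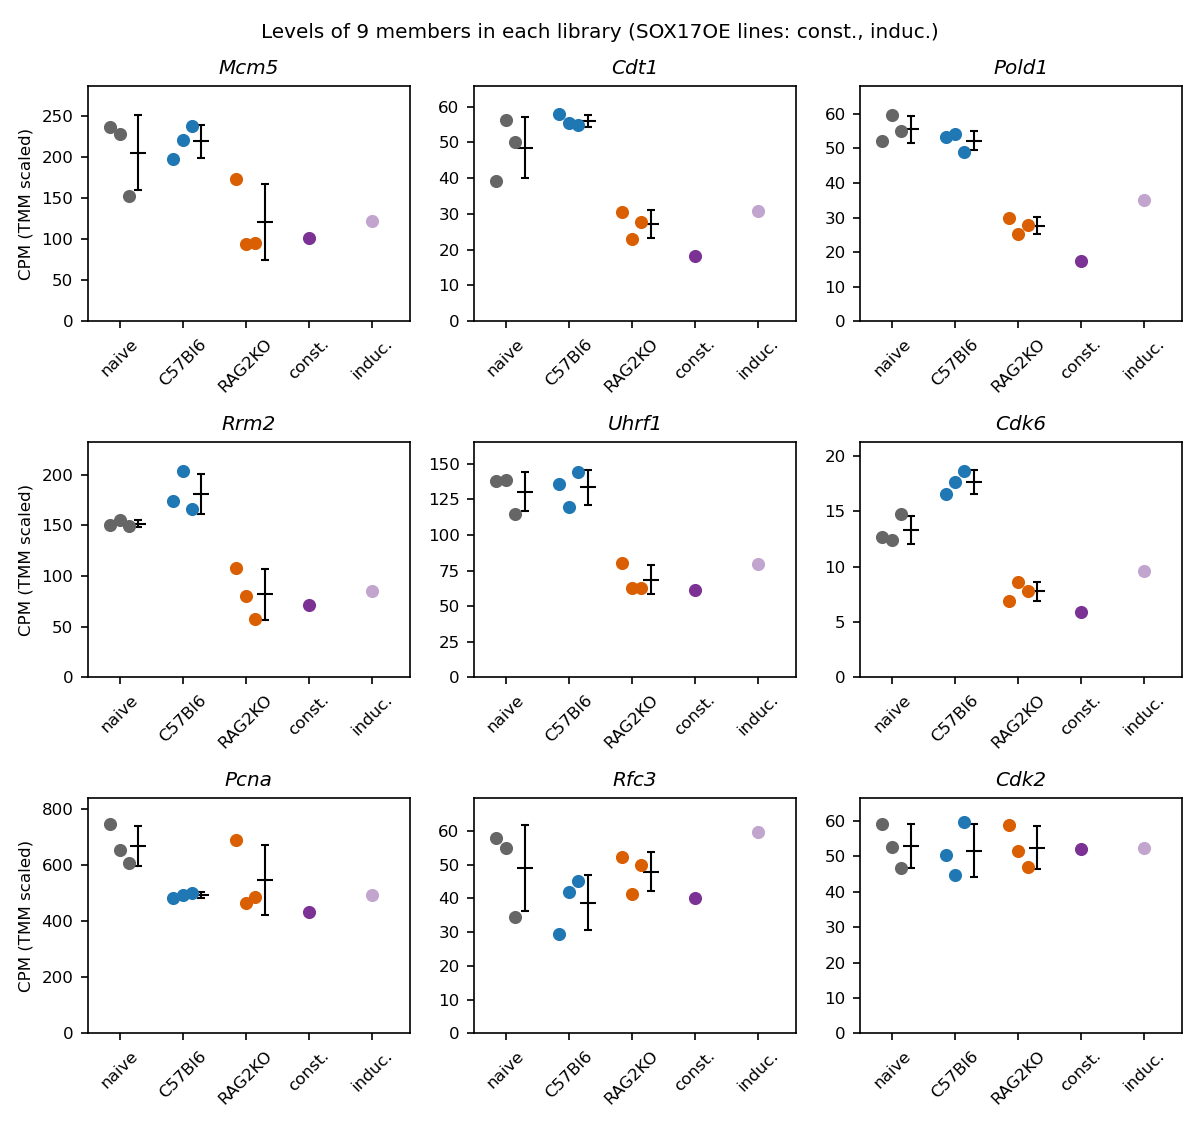
CPM (y axis, from 0) of 9 members in each library, one panel a gene; points are libraries, and the bar beside a group of 3 is its mean ± SD. Pold1, Cdt1, Uhrf1, Rrm2 and Cdk6 have the RAG2KO and SOX17OE points below all others, Mcm5 has RAG2KO replicate 1 (174 CPM) within the naive range, Pcna is lower in C57Bl6, and Rfc3 and Cdk2 overlap.

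**Figure D4:**
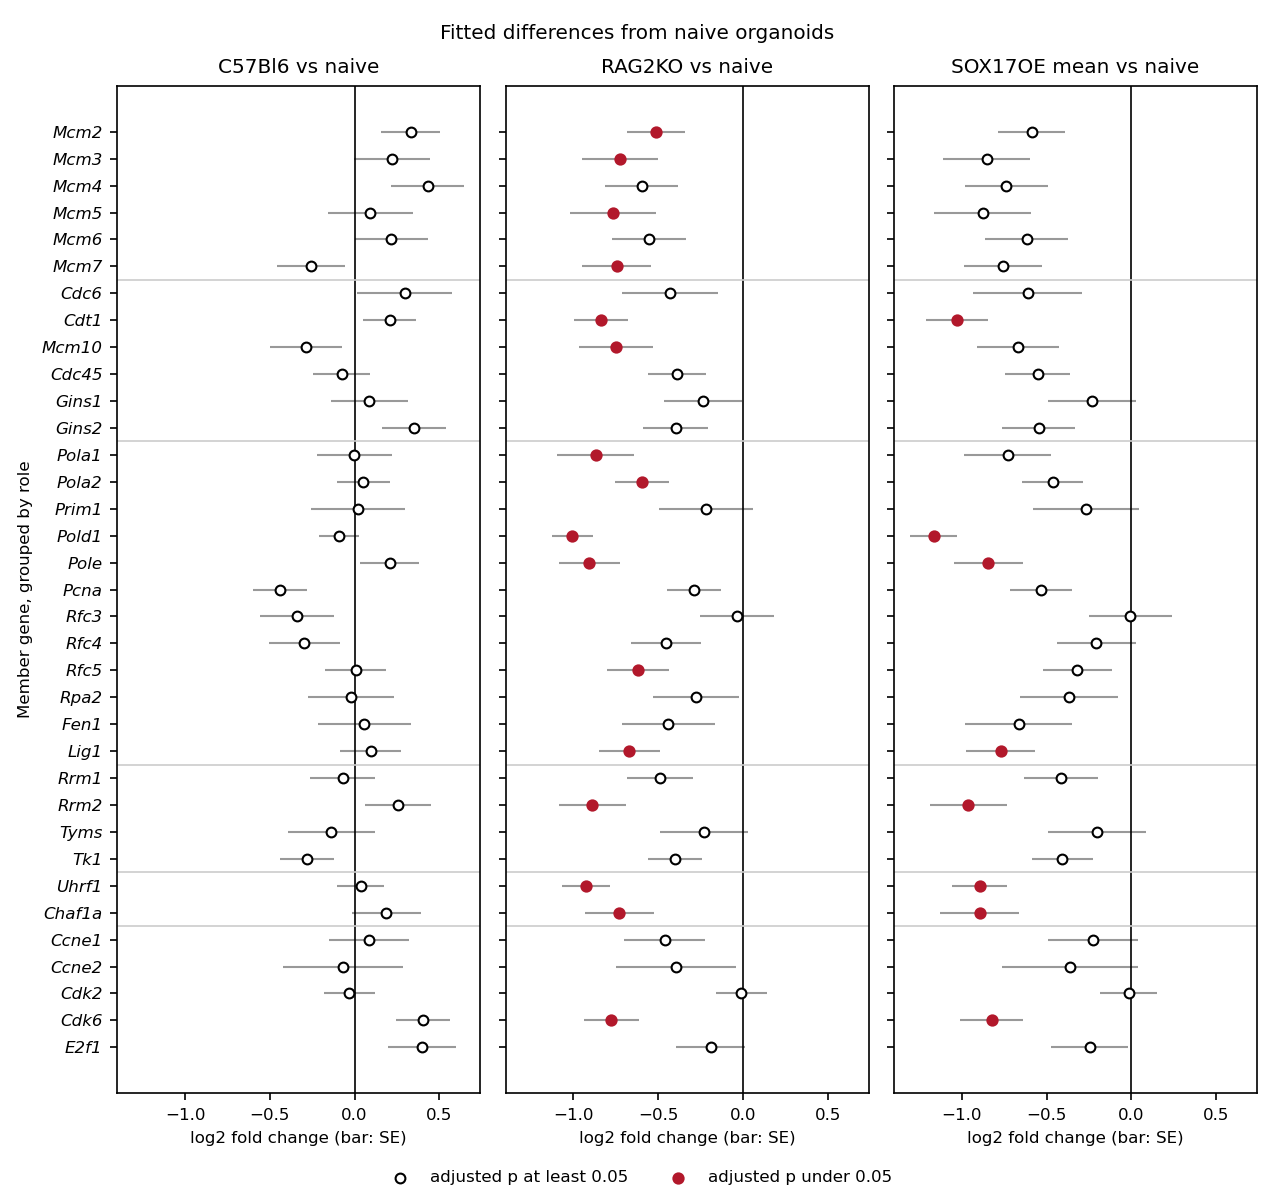
Fitted log2 fold changes of the 35 members against naive organoids for C57Bl6, RAG2KO and the mean of the SOX17OE lines, with bars of 1 standard error and filled points where the adjusted p is under 0.05. No point is filled for C57Bl6, 16 are filled for RAG2KO and 8 for SOX17OE, all of them left of 0.

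The libraries of a group differed in a common direction over the members. RAG2KO replicate 1 was the highest of its group in 34 of 35 members, all but Cdk6. The members' mean log2 level against the naive mean was -0.16 in RAG2KO replicate 1 and -0.74 and -0.75 in replicates 2 and 3, -0.72 in the constitutive and -0.37 in the inducible line. In the C57Bl6 libraries it was -0.06, 0.07 and 0.15. Naive replicate 3 was the lowest naive library in 32 of 35 members, all but Cdt1, Pold1 and Cdk6, with a mean of -0.26 against 0.16 and 0.10 in replicates 1 and 2. The median coefficient of variation of a member was 26.5% within RAG2KO, 16.0% within naive and 9.97% within C57Bl6, where over all tested genes it was 17.4, 14.3 and 17.0%. Without RAG2KO replicate 1, 26 members were called lower in RAG2KO than in naive at a median of -0.76, and 23 higher in C57Bl6 than in RAG2KO. Without RAG2KO replicate 2 or 3 the first of these counts was 6. It was also 6 without naive replicate 2, and 7 without naive replicate 1. As each library was left out in turn, all genes called in either direction ranged from 2041 to 4184 for RAG2KO against naive. These extremes were found without naive replicate 2 and without C57Bl6 replicate 1. For C57Bl6 against RAG2KO the range was 1857, without C57Bl6 replicate 3, to 3311, without naive replicate 3. In these fits all genes were not counted by direction, so the members' counts have no matched share beside them. Rn45s took 6.56% of counts in RAG2KO replicate 1, against 8.10 and 8.54% in the others, and Sox17 was at 22.2 CPM there against 15.4 and 24.4; their part in the spread was not tested. The library with the highest Sox17, C57Bl6 replicate 3 at 74.3 CPM, had a members' mean of 0.15, and the constitutive line, at 72.7 CPM, one of -0.72. These are single libraries of different kinds, and a relation of Sox17 to the members' level was not tested.

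**Figure D5:**
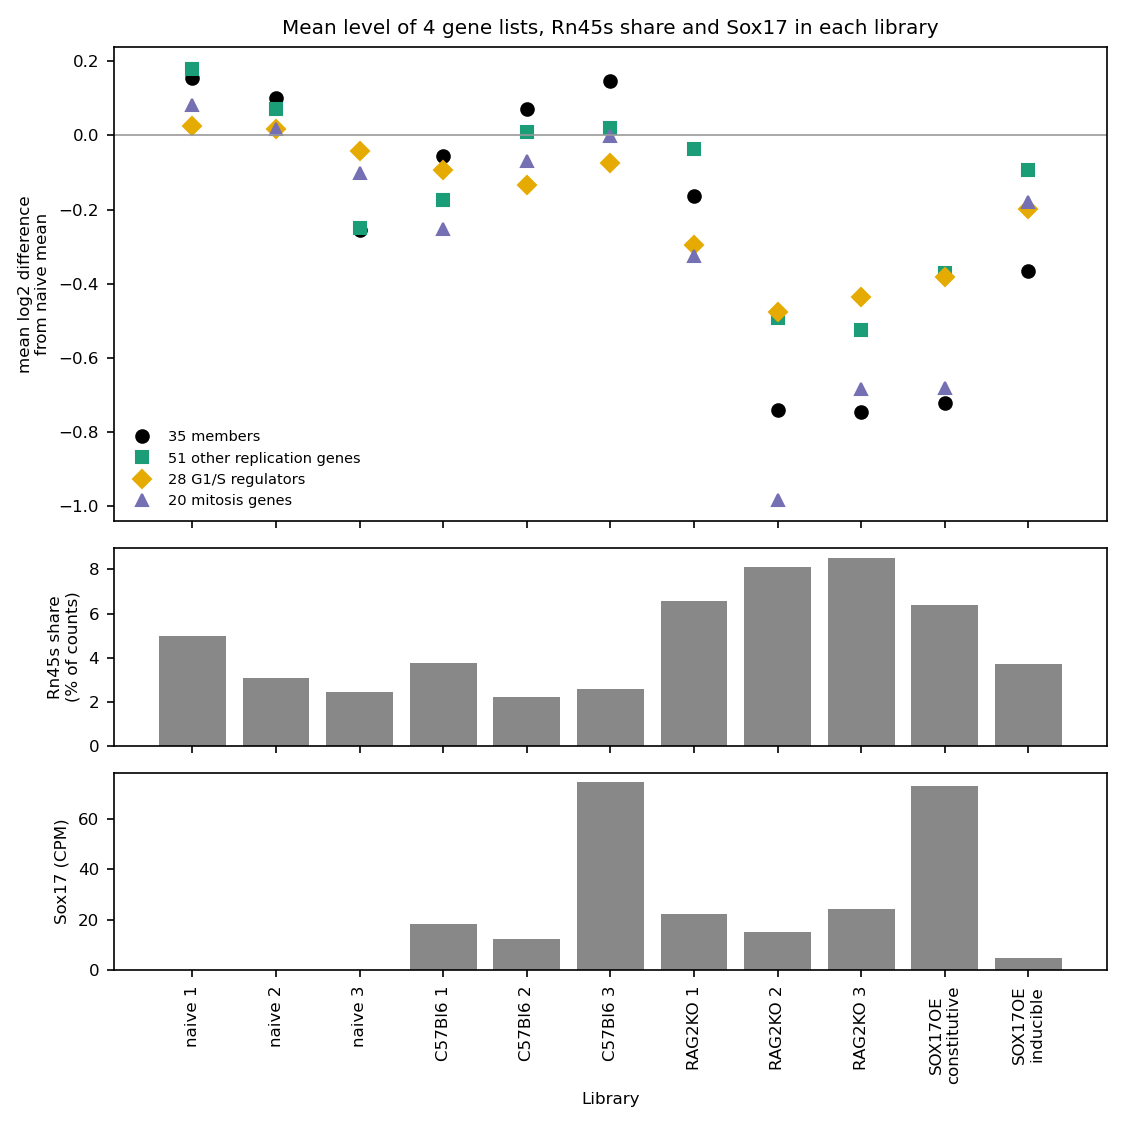
Top, mean log2 level against the naive mean of the members and 3 other gene lists in each library. Below, the Rn45s share of counts (percent) and Sox17 (CPM) as bars from 0. RAG2KO replicate 1 (-0.16) lies above replicates 2 and 3 (-0.74 and -0.75) for the members, and the C57Bl6 libraries lie near the naive ones.

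Over the 11 libraries, 595 pairs of members had a median Pearson correlation of log2 level of 0.783, as a description of libraries that fall into groups and share depth and scaling. Mcm5 had the highest median correlation with the other members, at 0.892, and Rfc3 (0.0625), Cdk2 (0.324) and Pcna (0.492) the lowest. The lowest of a member's 11 libraries was RAG2KO replicate 3 for 12 members, RAG2KO replicate 2 for 11 and the constitutive line for 10; the 2 exceptions were Rfc3 and Cdk2, which were lowest in C57Bl6 libraries.

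Of 51 tested genes with other roles in DNA replication, 13 were called lower in RAG2KO than in naive organoids and none higher, with a median of -0.37, where 13.3% of tested genes were called lower and 16% higher. The first by adjusted p were Rfc1, which codes for the large subunit of the clamp loader (log2 fold change -0.73, SE 0.11, adjusted p = 0.00181), the maintenance methyltransferase Dnmt1 (-0.96, SE 0.15, adjusted p = 0.00184), Pold2, the second subunit of polymerase delta (-1.01, SE 0.19, adjusted p = 0.00468), and Dbf4, the partner of the kinase CDC7 (-0.61, SE 0.13, adjusted p = 0.00813). Between C57Bl6 and RAG2KO 12 of the 51 were called higher and 1 lower (12.2% and 11.8% of tested genes), and between C57Bl6 and naive Prim2 alone was called, lower at -0.69 (SE 0.14, adjusted p = 0.00868), where 5.85% of tested genes were called lower. In the constitutive line 3 were called lower, Prim2, Dnmt1 and Pold2, a share near the 5.04% of tested genes.

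Among 28 regulators of the passage from G1 to S, 10 were called lower and 2 higher in RAG2KO than in naive organoids, against the same 13.3% and 16% of tested genes. Cdkn2a, which codes for inhibitors of CDK4 and CDK6 and of MDM2, rose by 1.05 on the log2 scale in RAG2KO (SE 0.12, adjusted p = 0.000454) and by 0.98 in C57Bl6 (SE 0.12, adjusted p = 0.00067). E2f7 and E2f8, which code for 2 repressive E2F factors, fell by 1.45 and 1.29 in RAG2KO (adjusted p = 0.0014 and 0.00158). They were not called between C57Bl6 and naive. Another E2F gene, E2f5, was called higher in RAG2KO, at 0.46 (SE 0.12, adjusted p = 0.0201). Rb1, the gene of RB, fell by 1.60 in RAG2KO (SE 0.25, adjusted p = 0.00212) and by 1.24 in C57Bl6 (SE 0.25, adjusted p = 0.00914). Ccnd1, a cyclin D gene, rose by 0.89 in C57Bl6 against naive (SE 0.15, adjusted p = 0.00334). E2f2, a further E2F gene, fell by 1.22 in C57Bl6 (SE 0.28, adjusted p = 0.0164) and by 1.24 in RAG2KO (SE 0.28, adjusted p = 0.0103). Between C57Bl6 and naive 2 of the 28 were called higher and 2 lower, where 15.3% of tested genes were called in either direction. In the constitutive line Ccnd2 fell by 2.05 (SE 0.30). Fitted changes of the 28 there ran from -2.34 to 0.55, with a median of -0.23. Of 20 mitosis genes, 12 were called lower in RAG2KO than in naive organoids with a median of -0.72 (13.3% of tested genes were called lower), among them Cenpf (-1.14), Cenpe (-1.04), Mki67 (-1.22) and Bub1b (-0.89), with adjusted p between 0.0014 and 0.00178. None of the 20 was called between C57Bl6 and naive with edgeR, which called 15.3% of tested genes. An unadjusted p under 0.05 was found there for 3 of the 20 and for 4141 of the 13720 tested genes. 10 were called higher in C57Bl6 than in RAG2KO, against 12.2% of tested genes. The mitosis genes were also lower in the SOX17OE lines. Their median log2 fold changes against naive were -0.48 for the mean, -0.73 for the constitutive and -0.23 for the inducible line. Of the 20, 19, 20 and 14 were fitted below 0 in these comparisons. The members' medians there were -0.59, -0.77 and -0.44.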

How the data were processed

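Libraries were directional and poly(A) selected, per the labels' protocols. The submitters' processing notes name Bowtie, RSEM and mm9, while versions and the annotation have no source here. The deposited values are expected counts that the authors obtained with RSEM; they were rounded to whole numbers. 25 row names are dates left by a spreadsheet and were kept.

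The 13720 genes that passed filterByExpr were scaled with TMM factors, and all 11 libraries in 5 groups were fitted with the quasi-likelihood test of edgeR 4.0.16 (robust, R 4.3.3). A SOX17OE line of 1 library was taken to vary as the replicated groups do. Two-sided p-values were adjusted over all tested genes by Benjamini-Hochberg, and a gene was called at an adjusted p under 0.05. Standard errors (SE) were obtained as the size of the log2 fold change over the root of its F statistic. Levels in correlations are log2 of CPM plus 0.5.

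The members and gene lists were chosen with earlier results of these data known. Each member was described, with every library's value for members called in any comparison. Where fewer than 3 were called, these values are also given for the 3 with the largest fitted differences. Of other lists the first 4 called by adjusted p are named, or fewer, and E2f5 was added to them. Promoters were matched by symbol in the RefSeq table for GRCm38.p6; Ccne2, Gins1, Gins2, Mcm4 and Pole have no entry. Counts were simulated for RAG2KO against naive over 13339 genes, with 100 genes changed 2-fold and 100 changed 1.5-fold. Of these, 43% and 7% were recovered, with 8 false calls. The real comparison called far more genes, 2192 higher and 1818 lower, so these rates may not hold for the members. A member that was not called may still differ.

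The alternatives changed the scaling (DESeq2 1.42.0 size factors, upper quartile, library totals), the filter (none, or 1 CPM in 3 libraries) or the test (DESeq2's Wald test, limma 3.58.1 voom with sample weights, edgeR without robust estimation). Others left out each library, kept only the groups compared, or added the replicate number as a block. An Rn45s covariate and a table without Rn45s were added after seeing the data.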

Additional observations from a re-analysis of the deposited data

Results flagged for a closer look

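The direct comparison of C57Bl6 with RAG2KO tumour-derived organoids tests whether the members' difference from naive organoids is the same after growth in the 2 kinds of mice, since both share the naive libraries. It differed by edgeR's quasi-likelihood test for 17 of the 35 members, each of them higher in C57Bl6, where 12.2% of tested genes were called higher. 9 of these 17 calls held with each library left out and 8 were lost without at least 1 library. With the Rn45s share as a covariate, added after seeing the data, edgeR called none of the 35 and 2 of all tested genes. Of the 35, 6 had an unadjusted p under 0.05, a threshold at which all genes were not counted. Among the MCM subunits the log2 fold changes were 0.84 for Mcm2, 0.94 for Mcm3, 1.03 for Mcm4, 0.86 for Mcm5 and 0.77 for Mcm6. Among the helicase loading and activation genes they were 1.05 for Cdt1 and 0.75 for Gins2. Among the polymerase and fork genes they were 0.87 for Pola1, 0.65 for Pola2, 0.92 for Pold1, 1.11 for Pole, 0.63 for Rfc5 and 0.77 for Lig1. The remaining ones were 1.15 for Rrm2, 0.96 for Uhrf1, 0.92 for Chaf1a and 1.18 for Cdk6. For each of these 17, all 3 C57Bl6 libraries lay above all 3 RAG2KO libraries. No group has 4 or more libraries, so single libraries were not tested for standing apart.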

How the results depend on the processing

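No called difference of a member changed sign under an alternative. Fitted differences of members that were not called did in 14 of 35 members for C57Bl6 against naive, in 3 of 19 for RAG2KO against naive (Tyms, Rfc3 and Cdk2), in 4 of 18 for C57Bl6 against RAG2KO, and in 5 of 27, 1 of 25 and 4 of 35 for the SOX17OE mean, the constitutive and the inducible line. Calls of members under other scalings, filters, the non-robust fit and the replicate block stayed within 1.5 times the values given. The labels do not say that replicate numbers pair the libraries. Deviations of same-numbered libraries from their group mean correlated at -0.227 to 0.285 and others at -0.36 to 0.218. With 3 libraries a group, these correlations cannot decide it. With the replicate block 0, 14 and 16 members were called for C57Bl6 against naive, RAG2KO against naive and C57Bl6 against RAG2KO, and the block in no case moved a count by over 1.5 times. The cause of the changes below was not tested.

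In the order C57Bl6 and RAG2KO against naive, C57Bl6 against RAG2KO, and the SOX17OE mean, constitutive and inducible line against naive, members called with a library left out ranged over 0 to 1, 6 to 26, 9 to 23, 0 to 15, 4 to 16 and 0 to 0. All genes called ranged over 1030 to 2328, 2041 to 4184, 1857 to 3311, 85 to 1931, 721 to 1900 and 12 to 147, and the members' median for RAG2KO against naive over -0.76 to -0.42. The call of Pcna for C57Bl6 was gained without RAG2KO replicate 1. Where a count of members is given below without one of all genes, the latter stayed within 1.5 times that of the main fit. Limma voom called 2 members for C57Bl6 against naive, 25 for RAG2KO, 22 for the mean, 21 for the constitutive and 2 for the inducible line, and 4086 genes for C57Bl6, 3825 for the mean, 3184 for the constitutive and 733 for the inducible line. DESeq2 called 1, 16, 18 and 2 members for C57Bl6, the mean, the constitutive and the inducible line, and 2711 and 800 genes for the mean and the inducible line. A fit of only the groups compared called 1, 5 and 16 members for C57Bl6, the mean and the constitutive line, and 864, 2605 and 443 genes for the mean, the constitutive and the inducible line. With the Rn45s covariate 0 members were called for RAG2KO against naive, 0 for C57Bl6 against RAG2KO, 2 for the mean and 1 for the constitutive line, and 148, 2, 267, 195 and 34 genes for these 4 and the inducible line. Depth limits single values by counting error, and 3 libraries a group limit what can be called.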
